A study of Homo sapiens with 12 samples.

Results

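The matrix metalloproteases (MMPs) and their tissue inhibitors (TIMPs) were followed in MDA-MB-231, an established triple-negative human breast cancer cell line of mesenchymal character. The genes described are MMP1, MMP2, MMP3, MMP7, MMP13, MMP14, MMP15, TIMP1, TIMP2 and TIMP3, which were taken by symbol as 10 of the 26364 rows of the deposited count table. The 12 RNA-seq libraries fall into 4 groups of 3 wells, treated for 24 h. One group received no drug, one received dexamethasone (DEX), a synthetic glucocorticoid, at 1 µM, one received SH4-54, which was designed to bind the STAT3 protein and block it, at 8 µM, and one received both compounds at these doses. All groups are wells of this single line, and no source used here names a vehicle. The labels name the replicates as wells, so the p-values rest on well-to-well spread alone, and fewer cells of a kind cannot be told apart from less RNA per cell.

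MMPs are zinc-dependent endopeptidases that cut collagens, gelatins, proteoglycans and other matrix proteins. Most are secreted as inactive proenzymes, and a membrane-type subgroup stays at the cell surface, where MMP14 activates pro-MMP2 with TIMP2 as an adaptor. TIMPs bind the active site of MMPs and block it, and in breast cancer both families are known for their part in invasion. Several secreted MMP genes carry AP-1 sites near their start, and glucocorticoids are known to lower collagenase and stromelysin transcripts in many cell types.

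Library totals ran from 25577213 to 35758236 counts. The deepest library was the third well with both compounds, which also had the lowest MMP1 and MMP3 levels of its group, and its part in the results is given below by leaving it out. VIM, CD44, AXL, CAV1 and EGFR, which mark this line, had group means of 117 to 1562 CPM (read counts scaled to library size), and the receptors ESR1 and PGR were at or below 0.366 CPM. CDH1 and EPCAM, which were listed as low or absent, were detected at 8.06 to 14.2 and 18.2 to 22.6 CPM. Of 7 markers of leukocytes, endothelium and fibroblasts, CD68 stood at 37.2 to 49.2 CPM, and the other 6 summed per well to 2.32 to 3.13 CPM without drug, 2.22 to 2.63 with DEX, 2.74 to 3.16 with SH4-54 and 1.59 to 2.5 with both compounds. Of the 7 markers 5 were tested, and 1 rose and 3 fell with DEX at an edgeR adjusted p below 0.05. Among all tested genes 21.9% rose and 23.2% fell with DEX at that threshold. The fibroblast marker DCN rose from 0.0117 to 0.987 CPM, while PTPRC fell from 0.366 to 0.123 CPM, PECAM1 from 0.965 to 0.466 CPM and CD68 from 42.3 to 37.2 CPM. COL1A1 went from 1.26 to 0.825 CPM and did not pass (edgeR adjusted p = 0.0670). The part of these markers in the DEX results was not tested. The endothelial marker CDH5 was at 0 in 11 of 12 libraries.

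The promoters of the genes with the largest rise and the largest fall under DEX, MMP15 and TIMP3, are shown with those of MMP7 and of MMP10, a stromelysin outside the 10 genes that is described beside MMP3. Each sequence is the 250 bases before the gene's start on its own strand, from RefSeq (GRCh38.p14), in lower case. Capitals mark matches, on either strand, to an AP-1 site (TGANTCA), a glucocorticoid receptor core (AGAACA), an ETS core (AGGAAG) or a STAT site (TTC and GAA with any 3 letters between).
MMP10 (chr11:102780629-102780878, minus strand): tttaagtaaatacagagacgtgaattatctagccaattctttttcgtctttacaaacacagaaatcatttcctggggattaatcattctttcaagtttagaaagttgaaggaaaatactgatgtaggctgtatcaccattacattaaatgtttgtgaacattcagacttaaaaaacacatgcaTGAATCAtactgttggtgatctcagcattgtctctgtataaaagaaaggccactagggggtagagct
MMP7 (chr11:102530748-102530997, minus strand): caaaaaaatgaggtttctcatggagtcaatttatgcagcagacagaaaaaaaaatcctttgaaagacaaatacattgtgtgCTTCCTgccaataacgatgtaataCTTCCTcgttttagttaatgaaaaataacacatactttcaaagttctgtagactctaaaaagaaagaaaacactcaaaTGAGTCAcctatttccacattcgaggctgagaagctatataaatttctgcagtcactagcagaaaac
MMP15 (chr16:58025504-58025753, plus strand): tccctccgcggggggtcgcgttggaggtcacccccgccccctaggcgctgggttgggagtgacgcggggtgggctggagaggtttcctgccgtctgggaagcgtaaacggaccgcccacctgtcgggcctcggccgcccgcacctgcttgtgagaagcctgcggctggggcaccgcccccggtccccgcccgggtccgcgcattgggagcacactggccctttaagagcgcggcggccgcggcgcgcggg
TIMP3 (chr22:32801455-32801704, plus strand): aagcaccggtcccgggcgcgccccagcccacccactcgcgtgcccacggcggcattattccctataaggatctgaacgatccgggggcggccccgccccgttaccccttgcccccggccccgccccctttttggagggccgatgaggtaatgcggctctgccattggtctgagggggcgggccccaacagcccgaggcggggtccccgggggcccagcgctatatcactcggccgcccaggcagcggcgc

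RefSeq promoters were matched for 5 of the 10 genes, namely MMP7, MMP14, MMP15, TIMP1 and TIMP3. MMP10 and MMP7 each held an AP-1 match that begins 67 bases before the start, and MMP7 held ETS matches at 169 and 145 bases. TIMP1 held an ETS match at 87 bases, and the windows of MMP14, MMP15 and TIMP3 held no match to these letters. Among 35116 windows of the same length, 6.57% held the AP-1 letters, 12.4% the glucocorticoid receptor core, 28.7% the ETS core and 6.57% the STAT letters. The GC content was 33.6% for MMP7 and 34.4% for MMP10, against 74.8% for MMP15, 72.4% for TIMP3 and a median of 58.0% over all windows. A match is a description of the letters and not a measured site.

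Of the 10 genes, 3 were near the detection limit, meaning that the filter on low counts dropped them or that their mean was below 1 CPM in each group. MMP2, the gelatinase A gene, had 1, 2 and 0 reads in the no-drug wells, 0, 0 and 1 with DEX, 1, 0 and 0 with SH4-54 and 0 in all wells with both compounds. MMP7, the matrilysin gene, had 0 reads in all no-drug and SH4-54 wells, 2, 2 and 0 with DEX and 1, 1 and 0 with both compounds. With 5 and 6 reads in all 12 libraries, neither gene was tested, and no difference was detectable at this depth. A count of 0 over a group of wells allows a level of up to 0.0331 to 0.0368 CPM, which covers counting error only. MMP13 passed the filter with 179 reads in all, and its highest group mean was 0.754 CPM. MMP3 was below 1 CPM in 2 groups, no drug and DEX, and above it in the others. The plot of raw reads shows these genes beside MMP10.

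**Figure D1:**
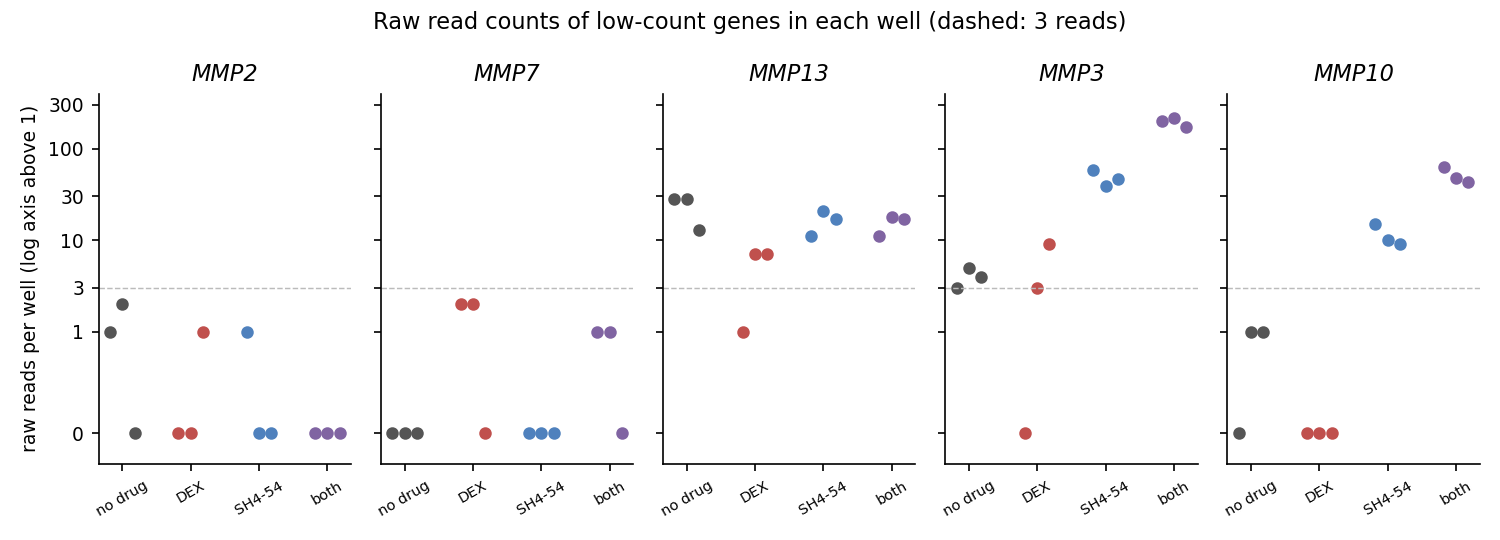
Raw reads per well (log axis above 1 read) for MMP2, MMP7, MMP13, MMP3 and MMP10 in the 4 groups, with a dashed line at 3 reads. MMP2 and MMP7 stay at or below 2 reads in every well, while MMP3 reaches 172 to 214 reads and MMP10 43 to 63 reads with both compounds.

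MMP1, the interstitial collagenase, was lower with DEX alone, and with both compounds it stood near the levels without drug and with SH4-54. It measured 18.7, 20.4 and 19.8 CPM without drug and 8.55, 7.88 and 7.76 CPM with DEX. With SH4-54 it measured 25.5, 22.1 and 22.6 CPM, and with both compounds 26.1, 26.2 and 15.6 CPM. All DEX wells lay below all other wells, the SH4-54 wells lay above the no-drug wells, and the wells with both compounds straddled the no-drug level, the third being low. MMP1 fell 2.44-fold with DEX (log2 fold change -1.29 ± 0.16 SE, edgeR adjusted p = 9.95e-06). It was 2.78-fold higher with both compounds than with DEX (1.48 ± 0.16, edgeR adjusted p = 2.68e-05). SH4-54 against no drug gave 0.25 ± 0.14 with a 95% interval of -0.07 to 0.58 (edgeR adjusted p = 0.464), so it did not pass the test although the wells did not overlap. Both compounds against no drug gave 0.19 ± 0.14 (edgeR adjusted p = 0.296), and without the third well with both compounds this became 0.41 (edgeR adjusted p = 0.000204).

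MMP13, collagenase 3, was also lowest with DEX, at far fewer reads. It had 28, 28 and 13 reads without drug, 1, 7 and 7 with DEX, 11, 21 and 17 with SH4-54 and 11, 18 and 17 with both compounds. The corresponding means were 0.754 ± 0.26, 0.181 ± 0.12, 0.607 ± 0.21 and 0.519 ± 0.12 CPM (SD, n = 3). The DEX wells lay below the wells of each other group, which overlapped among themselves. MMP13 fell with DEX by 2.02 on the log2 scale (SE 0.46, edgeR adjusted p = 0.00215), a ratio of summed counts of 0.241 with an exact 95% counting interval of 0.128 to 0.426. It was higher with both compounds than with DEX (1.47 ± 0.49, edgeR adjusted p = 0.0398). That call was lost without DEX replicate 1 (adjusted p = 0.136) or 2 (0.0652) and without replicate 1 (0.0562), 2 (0.133) or 3 (0.0507) of both compounds.

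MMP3, stromelysin 1, which cuts proteoglycans and activates procollagenases, was the 1 gene of the 10 called with SH4-54 alone. It had 3, 5 and 4 reads without drug and 0, 3 and 9 with DEX. It had 59, 39 and 47 reads with SH4-54 and 201, 214 and 172 with both compounds. In CPM the group means were 0.133 ± 0.036, 0.147 ± 0.17, 1.77 ± 0.29 and 6.79 ± 1.7 (SD, n = 3). The SH4-54 wells lay above the no-drug and DEX wells, which overlapped, and the wells with both compounds lay above all others. MMP3 rose with SH4-54 (log2 fold change 3.70 ± 0.48, edgeR adjusted p = 0.00163), a ratio of summed counts of 13.4 (exact 95% counting interval 7.44 to 26.5). It rose further with both compounds, to 49.8 times the no-drug level (28.3 to 96.9) and 3.71 times the SH4-54 level (3.09 to 4.48, edgeR adjusted p = 2.60e-05). Against DEX the log2 fold change with both compounds was 5.48 ± 0.39 (edgeR adjusted p = 1.06e-06), and it was 6.84 without DEX replicate 3, which held 9 of that group's 12 reads. DEX alone gave 0.15 ± 0.81 (edgeR adjusted p = 0.905), an interval of -1.73 to 2.02 that does not settle a direction, and the sign turned without DEX replicate 3 (-1.22) or no-drug replicate 1 (-0.06).

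MMP10, stromelysin 2, lies with MMP1, MMP3, MMP7 and MMP13 in a cluster of 9 MMP genes on chromosome 11, of which 4 were tested. It had 0, 1 and 1 reads without drug and none in the DEX wells. It had 15, 10 and 9 reads with SH4-54 and 63, 48 and 43 with both compounds. As for MMP3, the SH4-54 wells lay above the no-drug and DEX wells, which overlapped, and the wells with both compounds lay above all others. Against DEX the level with both compounds was higher (edgeR adjusted p = 1.23e-05), with a lower limit of 37.8-fold by the exact 95% counting interval. Taking 3 counts over the DEX group as the floor gave 47.0-fold. The rise with SH4-54 was a ratio of 18.9 (4.83 to 162, edgeR adjusted p = 0.0300), and it failed the threshold when any 1 well of no drug or SH4-54 was left out (adjusted p from 0.0584 to 0.121). The AP-1 match of MMP10 is in the promoter printed above.

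Among the membrane-type enzymes, MMP15 rose with DEX and MMP14 moved little. MMP15, also called MT2-MMP, measured 16.5, 16.2 and 15.6 CPM without drug and 41.5, 40.7 and 45.8 CPM with DEX. It measured 15.6, 13.9 and 14.5 CPM with SH4-54 and 32.1, 27.3 and 32.6 CPM with both compounds. The DEX wells were the highest, the wells with both compounds lay between them and the rest, and the SH4-54 wells lay just below the no-drug wells. MMP15 rose 2.65-fold with DEX (1.40 ± 0.071, edgeR adjusted p = 7.17e-10) and 1.90-fold with both compounds against no drug (0.93 ± 0.072, edgeR adjusted p = 8.82e-08). It was 1.39-fold lower with both compounds than with DEX (-0.47 ± 0.068, edgeR adjusted p = 0.000244). Its promoter, printed above, held no match to the letters searched.

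MMP14, or MT1-MMP, the activator of pro-MMP2, measured 142, 132 and 133 CPM without drug and 116, 117 and 125 CPM with DEX. It measured 126, 132 and 130 CPM with SH4-54 and 129, 139 and 126 CPM with both compounds. The DEX wells were the lowest, and the wells with both compounds overlapped those of no drug and of SH4-54. The fall with DEX was 1.14-fold (-0.19 ± 0.043, edgeR adjusted p = 0.00260). Both compounds against DEX gave 0.14 ± 0.044 (edgeR adjusted p = 0.0318), a call lost without DEX replicate 1 (0.108), DEX replicate 2 (0.108) or replicate 2 of both compounds (0.149), with the 2 groups fitted alone (0.0634) and with a replicate block (0.0525). Other membrane-type genes took different directions: MMP16 fell with DEX from 7.73 ± 0.71 to 3.48 ± 0.57 CPM (-1.16 ± 0.13, edgeR adjusted p = 2.51e-06) and MMP24 rose from 20.4 ± 0.34 to 26.4 ± 0.74 CPM (0.37 ± 0.052, edgeR adjusted p = 3.31e-05).

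TIMP3, the inhibitor that binds to the matrix itself, fell with DEX in both the absence and the presence of SH4-54. It measured 255, 235 and 230.4 CPM without drug and 52.5, 48.6 and 52.0 CPM with DEX. It measured 229.9, 229.3 and 228 CPM with SH4-54 and 66.8, 86.3 and 69.5 CPM with both compounds. The DEX wells were the lowest, the wells with both compounds lay just above them without overlap, and all were far below the other groups. TIMP3 fell 4.70-fold with DEX (-2.23 ± 0.074, edgeR adjusted p = 8.98e-12) and 3.24-fold with both compounds against no drug (-1.69 ± 0.072, edgeR adjusted p = 1.58e-10). With both compounds it was 1.45-fold higher than with DEX (0.54 ± 0.074, edgeR adjusted p = 0.000188). SH4-54 against no drug gave -0.07 ± 0.069 with an interval of -0.23 to 0.09 (edgeR adjusted p = 0.739).

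TIMP1 and TIMP2, the soluble inhibitors, differed little between groups. TIMP1 had means of 80.3 ± 5.2, 82.4 ± 2.7, 83.6 ± 3.2 and 84.6 ± 4.0 CPM (SD, n = 3) in the no-drug, DEX, SH4-54 and combined wells, which overlapped in every pair of groups compared. DEX against no drug gave 0.04 ± 0.049 with a 95% interval of -0.08 to 0.15 (edgeR adjusted p = 0.591). TIMP2, the inhibitor that links MMP14 to pro-MMP2, measured 90.7, 85.3 and 82.6 CPM without drug and 83.6, 76.8 and 73.3 CPM with DEX. It measured 96.1, 85.5 and 87.0 CPM with SH4-54 and 74.1, 74.3 and 82.1 CPM with both compounds. The wells with both compounds lay below those of no drug and of SH4-54, while the DEX and no-drug wells overlapped. TIMP2 was lower with both compounds than with SH4-54 (-0.22 ± 0.058, edgeR adjusted p = 0.00771) and than without drug (-0.17 ± 0.058, edgeR adjusted p = 0.0332). The second call was lost without no-drug replicate 1 (0.143) or 2 (0.0670) or without replicate 1 (0.115) or 2 (0.106) of both compounds. DEX against no drug gave -0.15 ± 0.059 (edgeR adjusted p = 0.0525), just outside the threshold. This fall passed in 6 of 18 alternatives and not in the other 12, with the lowest edgeR adjusted p (0.0184) without DEX replicate 1. TIMP4, which is outside the 10 genes, rose with DEX from 5.08 ± 0.32 to 9.54 ± 0.53 CPM (0.91 ± 0.10, edgeR adjusted p = 2.89e-06) and was 6.68 ± 0.60 CPM with both compounds.

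**Figure D2:**
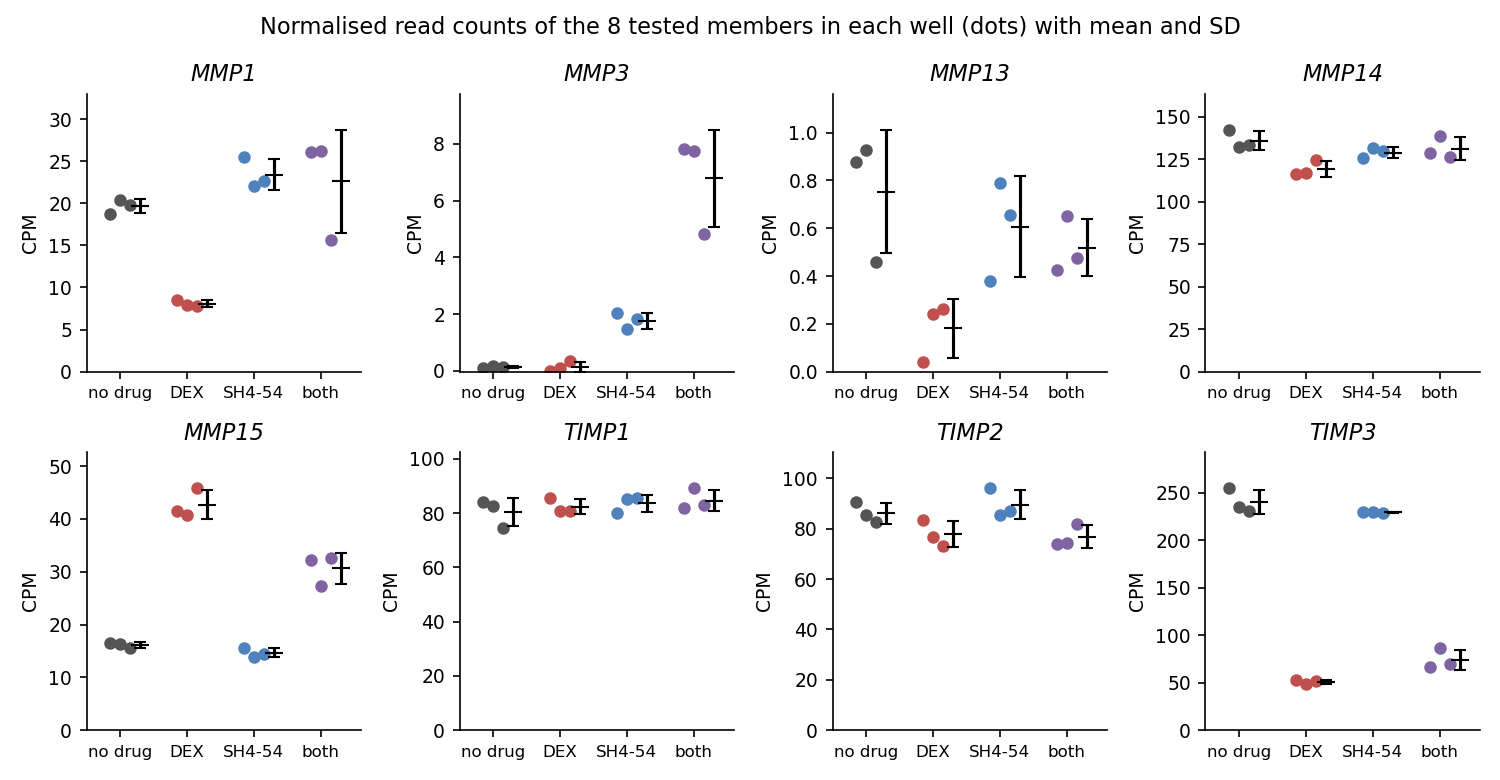
CPM (library-normalised read count) in each well for the 8 tested genes; dots are wells and the black bar is the mean with SD, 3 wells a group. MMP1 is lowest in the DEX wells, MMP3 is highest with both compounds, MMP15 is highest with DEX and TIMP3 is low in both DEX-containing groups.

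Levels were compared between genes as CPM per kilobase of annotated exon, with lengths from the GENCODE annotation on GRCh38, since no source used here names the annotation behind the counts. Without drug TIMP1 (55.0 ± 3.5) and TIMP3 (52.1 ± 2.8) were highest and did not differ beyond their spread. MMP14 (36.4 ± 1.5), TIMP2 (21.2 ± 1.0), MMP1 (9.98 ± 0.44) and MMP15 (3.79 ± 0.12) followed, each apart from its neighbours. MMP13 (0.266 ± 0.091) and MMP3 (0.0662 ± 0.018) were far lower, and MMP2 and MMP7 were at the floor. With DEX, TIMP3 (11.1 ± 0.47) dropped below MMP14 (32.0 ± 1.2) and TIMP2 (19.1 ± 1.3), and MMP15 (10.04 ± 0.64) stood above MMP1 (4.09 ± 0.22). With both compounds MMP1 (11.5 ± 3.1) stood above MMP15 (7.22 ± 0.69), a gap that the spread of MMP1 nearly spans, and MMP3 reached 3.37 ± 0.85. Exons of MMP1 overlap WTAPP1 on the opposite strand by 150 bases, those of TIMP2 overlap AC022966.1 on the opposite strand by 367 bases, and those of MMP2 overlap AC007336.3 on the same strand by 174 bases. The strand setting of the counting is not given, so shared reads cannot be assigned.

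Across comparisons, the 8 tested genes were called at an adjusted p below 0.05 and set against all 14184 tested genes. With DEX against no drug 1 gene rose (MMP15) and 4 fell (MMP1, MMP13, MMP14 and TIMP3), where 45.1% of all genes were called (21.9% higher and 23.2% lower). Their median log2 fold change was -0.17, against -0.01 for all genes. With SH4-54 against no drug 1 gene was called, MMP3, where 0.599% of all genes were called (0.268% higher and 0.331% lower). Both compounds against no drug gave 2 rises (MMP3, MMP15) and 2 falls (TIMP2, TIMP3), where 42.7% were called (21.1% higher and 21.6% lower). Both compounds against DEX gave 5 rises (MMP1, MMP3, MMP13, MMP14, TIMP3) and 1 fall (MMP15), where 26.6% were called (13% higher and 13.5% lower) and the median was 0.34 against 0.0047 for all genes. Both compounds against SH4-54 gave 2 rises (MMP3, MMP15) and 2 falls (TIMP2, TIMP3), where 40.4% were called (20.1% higher and 20.3% lower). These comparisons share wells, so their calls are not independent of each other.

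**Figure D3:**
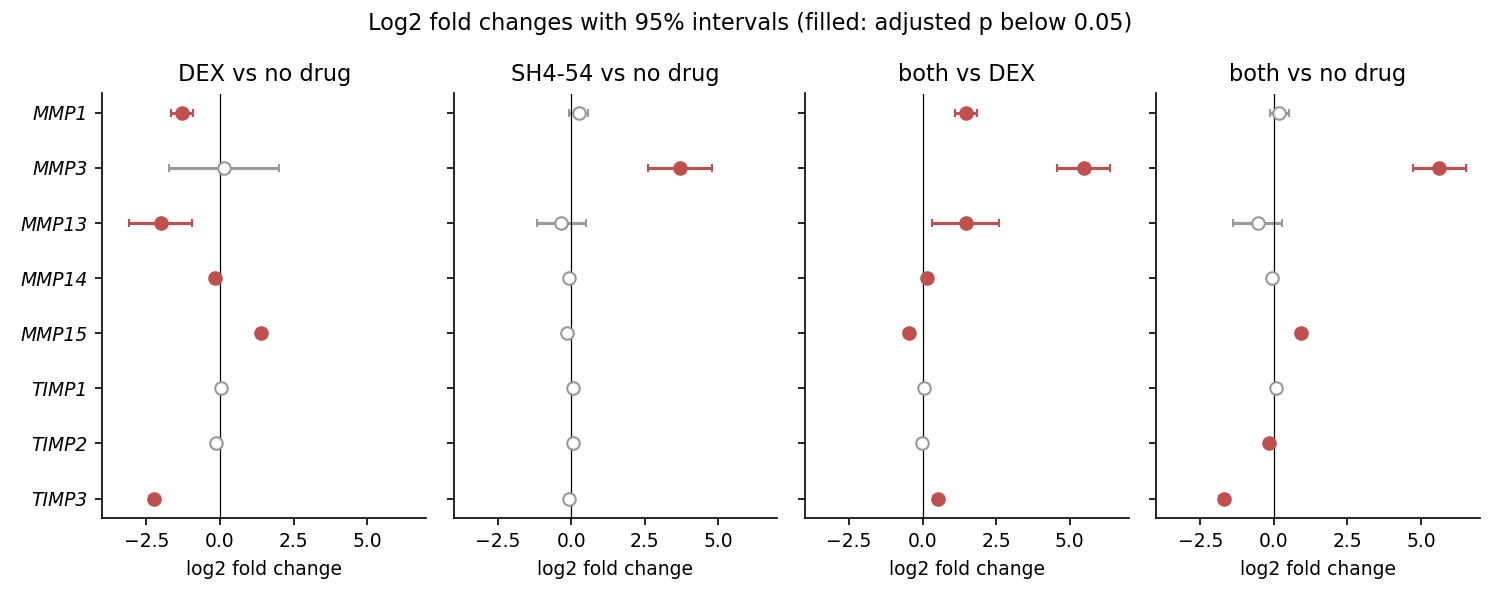
Log2 fold changes with 95% intervals of the 8 tested genes in 4 comparisons; filled points have an edgeR adjusted p below 0.05. The SH4-54 panel has 1 filled point, MMP3 at 3.70, while the DEX panel has MMP15 to the right and MMP1, MMP13, MMP14 and TIMP3 to the left of 0.

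The difference between the DEX effect with SH4-54 present and with it absent was tested as an interaction. It was called for 2 of the 8 genes, MMP1 and TIMP3, where 3.9% of all genes were called (2.44% higher and 1.46% lower). For MMP1 the DEX effect was -1.29 without SH4-54 and -0.06 ± 0.14 with it, a difference of 1.22 ± 0.21 (edgeR adjusted p = 0.00919). For TIMP3 it was -2.23 without and -1.63 ± 0.072 with it, a difference of 0.61 ± 0.10 (edgeR adjusted p = 0.00789). MMP13 (1.81 ± 0.61, edgeR adjusted p = 0.109), MMP3 (1.78 ± 0.89, edgeR adjusted p = 0.273), MMP14 (0.21 ± 0.061, edgeR adjusted p = 0.0677) and MMP15 (-0.34 ± 0.10, edgeR adjusted p = 0.0779) did not pass. TIMP1 (-0.02, edgeR adjusted p = 0.911) and TIMP2 (-0.07, edgeR adjusted p = 0.665) had intervals of -0.18 to 0.14 and -0.26 to 0.12. Without the third well with both compounds MMP14 (adjusted p = 0.0289) and MMP15 (0.0181) also passed, giving 4 genes, while the share of all genes called rose to 14.3%.

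**Figure D4:**
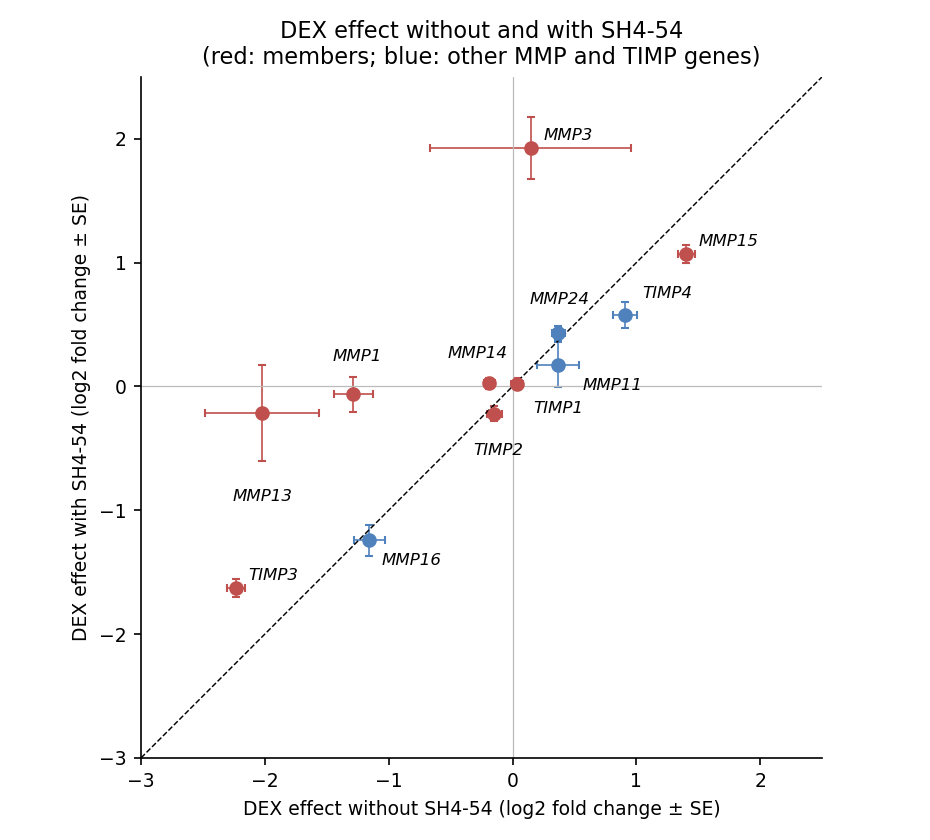
DEX effect without SH4-54 (x axis) against the DEX effect with SH4-54 (y axis), log2 fold change with SE bars. The 8 tested genes are red, and MMP11, MMP16, MMP24 and TIMP4 are blue. MMP10, MMP19 and MMP28 were tested but are not drawn. The dashed line marks equal effects. MMP1 lies at -1.29 and -0.06 and TIMP3 at -2.23 and -1.63, both above the line, while MMP16 lies close to it.

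The genes whose levels ran most like a given gene over the 12 libraries were found by Pearson correlation of log2 CPM among 10721 genes, as a description only. The libraries share treatment groups, so treatment alone can give high values. Closest to MMP3 were HSPA6 (r = 0.98), a stress-inducible chaperone, ARC (0.97), an immediate-early gene, and FOSB (0.96), an AP-1 subunit. HSPA6 measured 150.3, 483 and 156 CPM in the wells with both compounds, so the second of those wells stood apart for HSPA6 and not for MMP3. Closest to MMP1 were C17orf51 (0.98), SFPQ (0.98), an RNA-binding splicing factor, and MAP3K14 (0.98), the NF-kB-inducing kinase. Closest to MMP14 were COL6A2 (0.92), a collagen VI chain, RSRP1 (0.90) and VCP (0.90).

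Related genes were described from lists of other MMPs, other inhibitors and regulators, ADAM proteases, ADAMTS proteases and the AP-1 and ETS factors reported to act on MMP promoters. Of 12 AP-1 and ETS genes with DEX, 1 rose and 8 fell (median log2 fold change -0.47, against -0.01 for all genes, of which 21.9% were called higher and 23.2% lower), among them FOSL2 (-0.65 ± 0.038, edgeR adjusted p = 2.88e-09) and ETV1 (-0.91 ± 0.084, edgeR adjusted p = 4.80e-07). With SH4-54, where 0.268% of all genes were called higher, 2 of the 12 rose, FOS (1.88 ± 0.30, edgeR adjusted p = 0.00849, or 0.0507 without no-drug replicate 2) and FOSB (3.09 ± 0.43, edgeR adjusted p = 0.00326). With both compounds against DEX 7 rose and 2 fell (median 0.21, against 0.0047 for all genes, of which 13% were called higher and 13.5% lower). FOS measured 24.1, 37.5 and 17.6 CPM in the wells with both compounds and 1.32, 1.13 and 1.13 CPM in the DEX wells, a difference of 4.46 ± 0.28 (edgeR adjusted p = 3.57e-07). In the interaction 3 of the 12 were called, where 3.9% of all genes were, or 6 without the third well with both compounds, where 14.3% of all genes were. The 12 genes did not share 1 pattern. FOS and FOSB were highest with both compounds, as MMP3 was, and their part in the MMP3 result was not tested. FOSL2 remained lower with both compounds than without drug (-0.46 ± 0.037, edgeR adjusted p = 1.59e-07), and ETV1 was lower still with both compounds than with DEX (-0.26 ± 0.088, edgeR adjusted p = 0.0413, lost in 9 of the alternatives).

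Of the 16 other MMP genes 6 were tested, and with DEX 2 rose and 1 fell (median 0.30), close to the 45.1% of all genes called. With SH4-54, where 0.268% of all genes were called higher and 0.331% lower, MMP10 rose and MMP24 fell (-0.30 ± 0.053, edgeR adjusted p = 0.0145). The MMP24 call was lost when no-drug replicate 2 (0.0869), no-drug replicate 3 (0.0730) or SH4-54 replicate 3 (0.0748) was left out. With both compounds against DEX, where 26.6% of all genes were called, 1 rose, MMP10, and 2 fell. The falls were MMP24 (-0.24 ± 0.051, edgeR adjusted p = 0.00337) and MMP11 (-0.52 ± 0.17, edgeR adjusted p = 0.0360). The MMP11 call was lost without DEX replicate 2 (0.0707) or 3 (0.147) or replicate 1 (0.121) or 2 (0.129) of both compounds. It was also lost with the 2 groups fitted alone (0.0540). Of 15 other inhibitors and regulators tested, 6 rose and 5 fell with DEX (median 0.10, with 45.1% of all genes called), and 4 rose and 4 fell with both compounds against DEX (26.6% of all genes called). THBS1, thrombospondin 1, rose with DEX (1.19 ± 0.043, edgeR adjusted p = 1.54e-11). CD44, a surface anchor for MMPs (-0.62 ± 0.059, edgeR adjusted p = 5.55e-07), and the protease inhibitor gene TFPI2 (-0.81 ± 0.084, edgeR adjusted p = 1.74e-06) fell.

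Of 9 ADAM genes tested, which encode membrane sheddases and relatives, 3 rose and 3 fell with DEX (median -0.18, with 21.9% of all genes called higher and 23.2% lower). ADAM9 rose (0.33 ± 0.042, edgeR adjusted p = 1.31e-05) and ADAM15 rose (0.26 ± 0.036, edgeR adjusted p = 3.12e-05), and ADAM8 fell (-0.89 ± 0.075, edgeR adjusted p = 1.79e-07) as did ADAM19 (-0.39 ± 0.049, edgeR adjusted p = 1.18e-05). With both compounds against DEX 1 ADAM gene rose and 5 fell, 6 in all where 26.6% of all genes were called. The number was 3 without DEX replicate 1 (20.5% of all genes called), DEX replicate 3 (19.8%) or replicate 2 of both compounds (15.4%). It was 2 without DEX replicate 2 (18.5% of all genes called). Of 11 ADAMTS genes tested, which encode secreted proteases of the matrix, 3 rose and 4 fell with DEX (median -0.21, with 45.1% of all genes called). ADAMTS9 rose (1.42 ± 0.071, edgeR adjusted p = 6.70e-10), and ADAMTS1 (-1.02 ± 0.053, edgeR adjusted p = 9.94e-10) and ADAMTS15 (-0.52 ± 0.051, edgeR adjusted p = 8.04e-07) fell. With SH4-54 against no drug, where 0.599% of all genes were called, edgeR called 0 of the 15 inhibitors and regulators, 0 of the 9 ADAM and 0 of the 11 ADAMTS genes, with 2, 1 and 3 at an unadjusted p below 0.05. DESeq2 called 0, 0 and 1 of them, where it called 1.58% of 11707 genes. With both compounds against no drug, where 21.1% of all genes were called higher and 21.6% lower, the rises and falls were 1 and 1 among the other MMPs, 4 and 4 among the inhibitors and regulators, 2 and 5 among the ADAM genes, 4 and 4 among the ADAMTS genes and 4 and 5 among the AP-1 and ETS genes. With both compounds against DEX 3 ADAMTS genes rose and 1 fell, 4 in all (26.6% of all genes called). Among the rises were ADAMTS6 (1.12 ± 0.16, edgeR adjusted p = 0.000251) and ADAMTS1 (0.63 ± 0.053, edgeR adjusted p = 3.45e-06). Without replicate 2 of both compounds 2 ADAMTS genes were called, where 15.4% of all genes were.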

How the data were processed

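Total RNA of 12 wells was made into ribosome-depleted stranded libraries and read as single-end reads, per the labels' protocols. The authors deposited raw read counts per gene symbol in 1 table. The submitters' processing notes list the builds hg19 and GRCh37 and the tools featureCounts 1.5.1, HISAT2 2.1.0 and SAMtools. They give no gene annotation or strand setting. Groups and replicate numbers came from the sample titles, and the treatment tag of the SH4-54 samples reads SH5-54. A chi-square test of counts between wells of 1 group gave at least 4.23 per degree of freedom, so no well was a copy of another.

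Counts were tested with edgeR 4.0.16 in R 4.3.3: filterByExpr kept 14184 of 26364 rows, TMM scaling was used, the 4 groups were fitted together without a block, quasi-likelihood tests gave 6 contrasts, and p-values were adjusted by Benjamini-Hochberg across the tested genes and called below 0.05. Standard errors are the size of the log2 fold change divided by the root of F. The 95% intervals on log2 fold changes use these errors with 8 residual degrees of freedom. The tests use more degrees of freedom, so these intervals are wider than the p-values imply. CPM used TMM library sizes. Intervals on ratios of summed counts are exact and cover counting error only.

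All 10 genes are named, with up to 4 tested genes of each list by smallest p among called genes with a mean of at least 1 CPM, and the 3 most correlated genes for MMP1, MMP3, MMP14 and TIMP3. Those of TIMP3 are not reported here. The genes and lists were chosen with earlier results of these data known. Alternatives were DESeq2 1.42.0 size factors and Wald test, no or a stricter count filter, a replicate block, the compared groups alone and leaving out each well.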

Additional observations from a re-analysis of the deposited data

Results flagged for a closer look

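The DEX effect differed with and without SH4-54 for 2 of the genes, by the test of the difference itself. That test called 3.9% of all genes, a share that ran from 1.42% to 14.3% as single wells were left out. For MMP1 the difference was 1.22 on the log2 scale (edgeR adjusted p = 0.00919), and it stayed called in every alternative tried. For TIMP3 the difference was 0.605 (edgeR adjusted p = 0.00789), and it also stayed called in every alternative. No cause was tested for either.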

How the results depend on the processing

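Of 48 values tested for the 8 genes, 22 were called, over 6 comparisons in which 0.599% to 45.1% of all genes were called. Of these 22 values, 19 kept direction and call in every alternative tried. The other 3 lost the call in 1 or more (MMP13 and MMP14 with both compounds against DEX, TIMP2 with both compounds against no drug). No called value changed sign, 4 uncalled values passed the threshold in 1 or more alternatives, and 9 uncalled values changed sign. The interaction was called for 4 genes with no count filter, where 3.87% of all genes were called. As single wells were left out it was called for 2 to 4 genes, where 1.42% to 14.3% of all genes were called. MMP13 was dropped by the stricter filter and has no value there.

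Same-numbered wells did not deviate together (correlations of their deviations from -0.097 to 0.093), and the best match in another group had the same number in 12 of 36 cases. No pairing by number was therefore detected, which does not exclude a shared preparation. With a replicate block 6 of the 8 genes were called for DEX against no drug (43.4% of all genes called), where TIMP2 (-0.15, edgeR adjusted p = 0.0416) was added. For both compounds against DEX 5 were called (24.6% of all genes called), where MMP14 (0.14, edgeR adjusted p = 0.0525) was lost. The block left the number of calls at 1 for SH4-54 against no drug (0.479% of all genes called) and 2 for the interaction (2.78%). It stayed at 4 for both compounds against no drug (40.9% of all genes called) and 4 for both compounds against SH4-54 (38.6%).

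With single wells left out the log2 fold change of some uncalled values changed sign, and the cause was not tested. For DEX against no drug it ran from -1.22 to 0.69 for MMP3, from -0.64 to 0.11 for FOSB, from -0.042 to 0.12 for ADAMTS6, from -0.016 to 0.0699 for TIMP1. For SH4-54 against no drug it ran from -0.0045 to 0.023 for FOSL2. For the interaction of DEX and SH4-54 it ran from -0.058 to 0.032 for TIMP1, from -0.19 to 0.046 for MMP16, from -0.067 to 0.012 for ADAM19, from -0.071 to 0.0498 for ADAMTS15. For both compounds against DEX it ran from -0.084 to 0.035 for TIMP2, from -0.0009 to 0.065 for TIMP1. For both compounds against SH4-54 it ran from -0.19 to 0.15 for MMP1, from -0.021 to 0.0395 for TIMP1, from -0.48 to 0.018 for MMP13, from -0.017 to 0.044 for MMP14, from -0.027 to 0.35 for MMP11. Depth limits MMP2 and MMP7, which could not be tested, and MMP3 in the DEX and no-drug wells.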
